A study of Homo sapiens with 24 samples.

Results

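SK-N-SH and SK-N-AS, established cell lines from human neuroblastoma, were compared at baseline by RNA sequencing of cells that carried a non-targeting reagent. The members are 7 control libraries of 24 in the series: 3 of SK-N-SH and 4 of SK-N-AS, each with SpCas9-KRAB and the non-targeting guide sgGal4 (CRISPRi, in which Cas9 fused to the KRAB repressor is guided to a promoter and silences the gene). A further 5 libraries of SK-N-SH with a non-targeting siRNA served as a check, because line and experiment cannot be told apart between the 2 CRISPRi tables. The study lowered FAM167A (also called DIORA1), which its title links to MRCK kinases and cell motility; the 12 knockdown libraries were not used here. All control cells therefore carried a reagent, and untreated cells were not among the libraries. The labels name no clone, so whether the CRISPRi cells of a line derive from a single cell is not known from them. Nothing in the labels says that replicates came from separate cultures, so p-values measure the spread between these libraries, which may be technical.

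Neuroblastoma arises in the sympathetic branch of the neural crest, and its cells are known in an adrenergic state, held by a circuit of transcription factors such as HAND2 and GATA3, and in a mesenchymal state, marked by factors such as PRRX1, TWIST1 and FOSL1. Adrenergic cells make catecholamines and neuronal proteins, while mesenchymal cells make matrix, actin bundles and focal adhesions. SK-N-SH is known as a mixture of neuroblast-like and substrate-adherent cells, and SK-N-AS as a line with mesenchymal traits; neither line is known for MYCN amplification.

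The SK-N-SH CRISPRi libraries held 11690515 to 21628076 counted reads, the SK-N-AS libraries 29985858 to 81825474 and the SK-N-SH siRNA libraries 71464698 to 85121003. Reads from the mitochondrial genome made up 4.66% to 5.49%, 6.9% to 7.54% and 7.83% to 9.07% of them. Counts of no 2 libraries of a group agreed within sampling noise (chi-square per degree of freedom 3.0 to 20.22 over genes). SK-N-SH siRNA replicate 5 stood apart, at 12.99 to 20.22 from the other siRNA controls, which were 6.49 to 9.29 from each other; without it 4669 genes were large in the same direction in both comparisons described below, against 4688 with it. The cells were checked against marker lists, given as the range over libraries of their summed CPM (read counts scaled to a common library total, with TMM factors). The 8 adrenergic neuroblast markers summed to 2187 to 2319 CPM in the SK-N-SH CRISPRi controls, 1538 to 1615 CPM in SK-N-AS and 2962 to 3347 CPM in the SK-N-SH siRNA controls, and the 8 mesenchymal markers to 5995 to 6809, 2519.6 to 2682 and 2470.2 to 2655 CPM. Members of both lists were split. Of the adrenergic markers 4 were called higher in SK-N-SH and 3 in SK-N-AS (median 0.15, with siRNA 1.02). Of the mesenchymal markers 5 were called higher in SK-N-SH and 3 in SK-N-AS (median 0.84, with siRNA -0.15). Over all genes tested with the CRISPRi controls, 7137 of 17392 were called higher in SK-N-SH and 6847 in SK-N-AS. Called counts of such short lists therefore say little. VIM and FN1 led the mesenchymal sum in the SK-N-SH CRISPRi controls. Among the adrenergic markers TH, the first enzyme of catecholamine synthesis, was close to 0 in every library (0.0440, 0.737 and 0.102 CPM on average). The 6 fibroblast and smooth muscle markers summed to 4791 to 5544, 1850.2 to 1998 and 2275 to 2393 CPM, led by COL1A1; of the 5 members tested, 1 was called higher in SK-N-SH and 3 in SK-N-AS (median -0.37; with siRNA -2.31 over 6 tested). Epithelial, endothelial, Schwann cell and adrenal cortex lists summed to at most 5.5 CPM in any library.

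The blood list stood apart in SK-N-AS, through a single gene. PTPRC, the leukocyte phosphatase CD45, was at 0.598, 0.620 and 0.699 CPM in the SK-N-SH CRISPRi controls, 537, 556, 576 and 552 CPM in the SK-N-AS controls and 0.0802, 0.0257, 0.0233, 0.0538 and 0 CPM in the SK-N-SH siRNA controls. Every SK-N-AS library was high and no SK-N-SH library reached 1 CPM, while CD3E and HBB had no read in SK-N-AS and CD14 was at 0.495, 0.42156 and 0.419 CPM in SK-N-SH CRISPRi, SK-N-AS and SK-N-SH siRNA controls. In bulk RNA, fewer cells of a type and less RNA per cell cannot be told apart.

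A gene was called different at an adjusted p under 0.05 (edgeR's quasi-likelihood test, Benjamini-Hochberg adjustment over all genes tested), and its difference is termed large where the fold change was also at least 2. Between the CRISPRi controls 13984 of 17392 genes were called, 80.4% of those tested; 3820 were large and higher in SK-N-SH (22.0%) and 2414 were large and higher in SK-N-AS (13.9%). With the siRNA controls in place of the CRISPRi controls of SK-N-SH, 17937 of 20952 genes were called (85.6%), with 6539 large and higher in SK-N-SH (31.2%) and 3344 large and higher in SK-N-AS (16.0%). The SK-N-SH control groups also differed from each other: 14734 of 21430 genes were called (68.8%), 3963 large and higher with siRNA (18.5%) and 2267 large and higher with CRISPRi (10.6%). These groups differ in delivery, in library kit, in gene annotation and in depth at once, and the part of each was not tested. With shares this high, a call alone says little about a gene, so sizes are read below. Counts of large genes in the lists below stand beside shares of 22.0% and 13.9% with the CRISPRi controls. With the siRNA controls these shares over all genes tested are 31.2% and 16.0%.

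Of the 17222 genes tested in both comparisons with SK-N-AS, 2938 were large and higher in SK-N-SH in both (17.1%) and 1750 large and higher in SK-N-AS in both (10.2%). Both comparisons share the 4 SK-N-AS libraries, so their common count is a description. The SK-N-AS libraries came from a single experiment, so anything particular to it would appear in both comparisons. The siRNA check cannot tell that apart from the line. A further 632 genes were large and higher in SK-N-SH with the CRISPRi controls but not with the siRNA controls, 583 likewise in the direction of SK-N-AS, and 99 and 76 were large in opposite directions, higher and lower in the SK-N-SH CRISPRi controls. Log2 fold changes below are SK-N-SH over SK-N-AS, with the standard error, first with the CRISPRi and then with the siRNA controls. Every one of them was called unless its adjusted p is printed as missing the threshold. Over all genes tested the median was 0.02 and 0.13.

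FAM167A, the gene targeted in the study, was measured at 237, 266 and 255 CPM in the SK-N-SH CRISPRi controls, 102, 90.0, 97.9 and 100.02 CPM in the SK-N-AS controls and 182, 186, 163, 195 and 185 CPM in the SK-N-SH siRNA controls. Every SK-N-SH library lay above every SK-N-AS library, and the siRNA controls lay between the other groups. The log2 fold change was 1.37 ± 0.04 (adjusted p = 1.4e-25, edgeR's quasi-likelihood test with Benjamini-Hochberg adjustment) and 0.88 ± 0.04 (adjusted p = 6.6e-15). Its paralogue FAM167B was low in all groups, at 0.427, 0.688 and 0.652 CPM in the SK-N-SH CRISPRi controls, 0.253, 0.132, 0.254 and 0.167 CPM in the SK-N-AS controls and 0.428, 0.89979, 0.768, 0.659 and 0.517 CPM in the SK-N-SH siRNA controls. The lowest SK-N-SH libraries still lay above the highest SK-N-AS library, with log2 fold changes of 1.495 ± 0.44 and 1.62 ± 0.33.

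The MRCK kinases, which act downstream of the small GTPase CDC42 on myosin and so on cell movement, took 3 different courses. CDC42BPA (MRCK alpha) was at 155, 155 and 145 CPM in the SK-N-SH CRISPRi controls, 218, 203, 234 and 218 CPM in the SK-N-AS controls and 102, 96.1, 99.3, 100.5 and 103 CPM in the SK-N-SH siRNA controls. Every SK-N-SH library lay below every SK-N-AS library, with log2 fold changes of -0.53 ± 0.04 and -1.14 ± 0.03. CDC42BPB (MRCK beta) was at 202, 188 and 203 CPM in the SK-N-SH CRISPRi controls, 203, 193, 206 and 199 CPM in the SK-N-AS controls and 181, 181, 172, 187 and 194 CPM in the SK-N-SH siRNA controls. Its groups overlapped with the CRISPRi controls, where the log2 fold change of -0.02 ± 0.04 missed the threshold (adjusted p = 0.62, edgeR's quasi-likelihood test), and with the siRNA controls it was -0.15 ± 0.03; without siRNA replicate 1 the latter was -0.080 and in libraries thinned to equal totals -0.063, and both missed the threshold (adjusted p = 0.0535 and 0.125). CDC42BPG (MRCK gamma) was at 7.51, 6.82 and 6.61 CPM in the SK-N-SH CRISPRi controls, 0.745, 0.330, 0.610 and 0.803 CPM in the SK-N-AS controls and 12.2, 12.7, 12.1, 11.020 and 12.6 CPM in the SK-N-SH siRNA controls. All SK-N-SH libraries were above all SK-N-AS libraries, with log2 fold changes of 3.41 ± 0.20 and 4.19 ± 0.13. CDC42 itself was at 241, 2.73 and 1.46 CPM on average; its locus is overlapped on the same strand by a gene ID that is not in all 3 tables, so its count depends on the annotation used and gives no line difference.

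**Figure D1:**
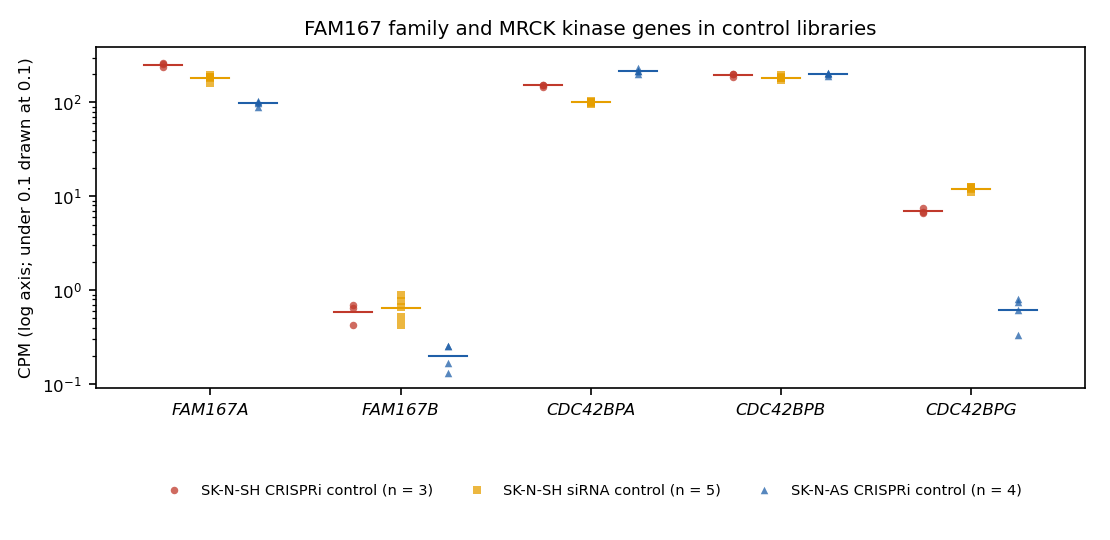
Levels of FAM167A, FAM167B and the 3 MRCK kinase genes in each control library, in CPM on a log axis (points: libraries, bars: group means). FAM167A lies highest in the SK-N-SH CRISPRi controls and lowest in SK-N-AS, CDC42BPA is highest in SK-N-AS, the CDC42BPB groups lie together, and CDC42BPG is at 6.61 CPM or more in SK-N-SH and at 0.803 CPM or less in SK-N-AS.

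Among the 16 tested genes of the list made of FAM167A, FAM167B and the neighbours on 8p23.1, 4 were large and higher in SK-N-SH and 3 in SK-N-AS, with a median of -0.02 (5 and 2, median 0.43, with siRNA). Such counts are close to the shares over all genes tested (22.0% and 13.9%, with siRNA 31.2% and 16.0%). BLK, a B lymphocyte kinase next to FAM167A, was at 1.11, 0.0614 and 9.94 CPM in SK-N-SH CRISPRi, SK-N-AS and SK-N-SH siRNA controls, and FDFT1, which makes squalene, at 83.4, 301 and 118 CPM. The direction of FAM167A was thus not that of every neighbour: FDFT1 was lower in SK-N-SH, at -1.85 ± 0.04 and -1.37 ± 0.03.

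Adrenergic identity genes were split between the lines. Of 26 adrenergic transcription factors 8 were large and higher in SK-N-SH and 7 in SK-N-AS (median -0.37); with the siRNA controls the counts were 9 and 6 (median 0.41), and 8 and 5 were large in both. PHOX2A, a homeobox factor of the sympathetic lineage, was at 309, 304 and 284 CPM in the SK-N-SH CRISPRi controls, 144, 125, 139 and 141 CPM in the SK-N-AS controls and 318, 335, 313, 309 and 302 CPM in the SK-N-SH siRNA controls. Both SK-N-SH groups were above SK-N-AS without overlap, at 1.12 ± 0.04 and 1.19 ± 0.04.

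Among the members higher in SK-N-SH, those with the largest fold changes in both comparisons were SIX3, ZNF536, LMO1, ISL1 and SATB1. SIX3, a homeobox factor of the adrenergic circuit, was at 65.1, 67.0 and 59.2 CPM in the SK-N-SH CRISPRi controls, 0.309, 0.529, 0.356 and 0.468 CPM in the SK-N-AS controls and 128, 134, 131, 129 and 132 CPM in the SK-N-SH siRNA controls. No SK-N-AS library reached 1 CPM, and the log2 fold changes were 7.33 ± 0.11 and 8.37 ± 0.08. ZNF536, a zinc finger repressor of neuronal differentiation, had 2 reads, both in a single SK-N-AS library, and was 1855-fold (95% counting interval 512 to 15344) higher in the CRISPRi controls. ISL1, a LIM homeobox factor of sympathetic neurons, had log2 fold changes of 2.64 ± 0.04 and 2.14 ± 0.04, and SATB1, a chromatin organiser, 2.49 ± 0.05 and 3.43 ± 0.04.

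Of the core factors, HAND2 and GATA3 were not large in either comparison, while TFAP2B was large in both. HAND2 averaged 480.1, 628 and 634 CPM, and its fold change with the siRNA controls missed the threshold (-0.00 ± 0.03, adjusted p = 0.94, edgeR's quasi-likelihood test) while with the CRISPRi controls it was -0.39 ± 0.04. GATA3 was higher in SK-N-SH by 0.35 ± 0.04 and 0.86 ± 0.04, and TFAP2B by 1.48 ± 0.04 and 2.09 ± 0.04. TBX2, a T-box factor, was lower in SK-N-SH (-1.35 ± 0.04 and -0.99 ± 0.03). In SK-N-AS, INSM2, HEY1 and EYA1 were among the members higher, with INSM2, a zinc finger factor of neuroendocrine cells, at 13.7, 189.9 and 64.1 CPM in the 3 groups.

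Mesenchymal transcription factors leaned to SK-N-AS, though not all of them did. Of 28 tested, 3 were large and higher in SK-N-SH and 10 in SK-N-AS (median -0.15), beside 22.0% and 13.9% of all genes tested. With the siRNA controls the counts were 5 and 11 (median -0.63), and 3 and 8 were large in both. SIX4, a homeobox factor, was at 15.9, 17.4 and 17.1 CPM in the SK-N-SH CRISPRi controls, 0.253, 0.330, 0.102 and 0.0334 CPM in the SK-N-AS controls and 15.8, 15.1, 17.2, 16.5 and 15.9 CPM in the SK-N-SH siRNA controls. It was under 1 CPM in every SK-N-AS library, with log2 fold changes of 6.70 ± 0.22 and 6.64 ± 0.19. KLF4 was at 0.598, 0.207 and 0.559 CPM in the SK-N-SH CRISPRi controls, 10.3, 9.55, 10.3 and 11.6 CPM in the SK-N-AS controls and 0.762, 0.630, 0.675, 0.685 and 0.870 CPM in the SK-N-SH siRNA controls. That order is the reverse, with SK-N-AS high in every library and log2 fold changes of -4.50 ± 0.21 and -3.87 ± 0.11. SNAI2, a repressor of epithelial genes, was also higher in SK-N-AS (-2.16 ± 0.09 and -1.93 ± 0.07), and RUNX1 was higher in SK-N-SH (1.86 ± 0.07 and 1.36 ± 0.07).

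PRRX1, TWIST1 and FOSL1, the factors most used to name the mesenchymal state, did not share a direction. PRRX1 averaged 391, 424 and 342 CPM in SK-N-SH CRISPRi, SK-N-AS and SK-N-SH siRNA controls, a log2 fold change of -0.12 ± 0.03 and -0.32 ± 0.04; the first missed the threshold in libraries thinned to equal totals (-0.071, adjusted p = 0.0719, edgeR's quasi-likelihood test). TWIST1 was higher in SK-N-SH by 0.89 ± 0.04 and 1.69 ± 0.04. FOSL1 was higher in SK-N-SH with the CRISPRi controls (0.87 ± 0.05) and lower with the siRNA controls (-0.62 ± 0.06), so no line difference can be read from it.

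**Figure D2:**
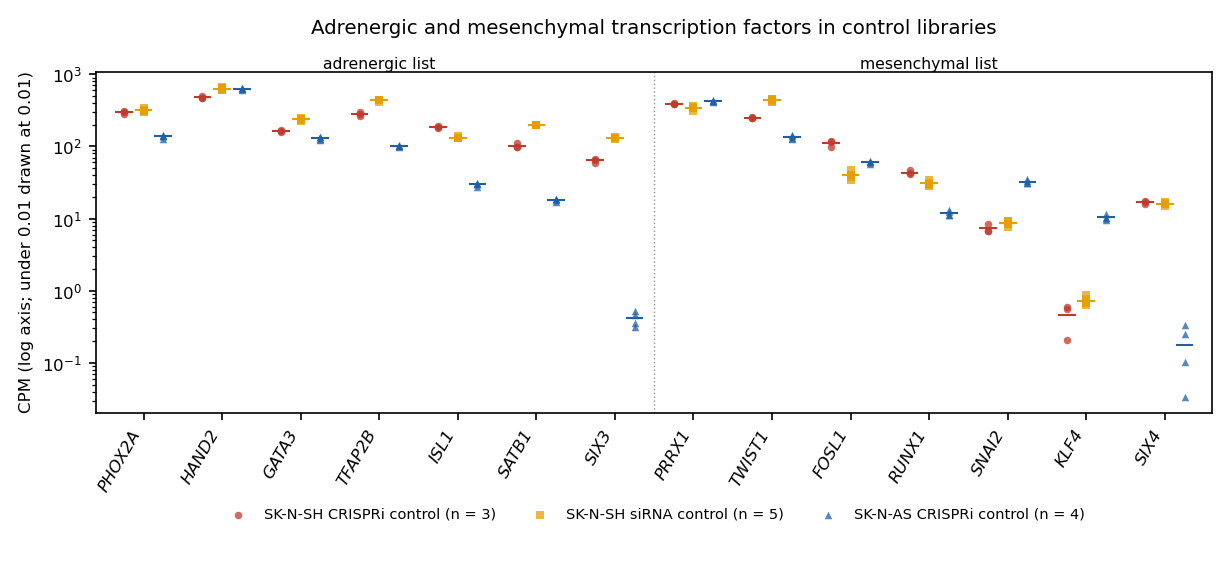
Levels of 7 adrenergic and 7 mesenchymal transcription factors in each control library, in CPM on a log axis (points: libraries, bars: group means, values under 0.01 drawn at 0.01). SIX3 and SIX4 lie far above SK-N-AS in both SK-N-SH groups, KLF4 and SNAI2 lie highest in SK-N-AS, and HAND2 and PRRX1 are within a few fold in all 3 groups.

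Genes of noradrenaline handling were mixed, with DBH and SLC6A2 higher in SK-N-SH. DBH, which converts dopamine to noradrenaline, was at 622, 654 and 669 CPM in the SK-N-SH CRISPRi controls, 13.5, 13.7, 12.6 and 12.8 CPM in the SK-N-AS controls and 360.4, 398, 362, 344 and 368 CPM in the SK-N-SH siRNA controls. No SK-N-AS library came near either SK-N-SH group, with log2 fold changes of 5.63 ± 0.05 and 4.79 ± 0.05. SLC6A2, the noradrenaline transporter, was at 182, 214 and 196 CPM in the SK-N-SH CRISPRi controls, 30.1, 31.3, 28.0 and 27.0 CPM in the SK-N-AS controls and 321, 326, 316, 339 and 349.9 CPM in the SK-N-SH siRNA controls. It followed the same order, at 2.77 ± 0.06 and 3.50 ± 0.05. DDC, which makes dopamine, went the other way (-0.74 ± 0.04 and -0.70 ± 0.03), and SLC18A2, a vesicular monoamine transporter, was at 1.39, 0.0165 and 0.573 CPM. Over the 14 genes of catecholamine synthesis, storage and breakdown, 6 were large and higher in SK-N-SH and 3 in SK-N-AS (median 0.77; with siRNA 6 and 1, median 0.64).

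Several peptide genes were high in SK-N-AS. GCG, which encodes proglucagon, was at 267, 274, 274 and 268 CPM in the SK-N-AS libraries and had no read in any SK-N-SH library. Counted against a floor of 3 reads over a group, it was thus at least 4300.3-fold and at least 34834-fold higher in SK-N-AS than in the SK-N-SH CRISPRi and siRNA controls. VIP, a vasodilating neuropeptide, was at 24.3, 33.9 and 28.0 CPM in the SK-N-SH CRISPRi controls, 1169, 1142, 1209 and 1179 CPM in the SK-N-AS controls and 60.6, 52.1, 56.8, 57.3 and 53.9 CPM in the SK-N-SH siRNA controls. The 4 SK-N-AS libraries lay far above all others, and the log2 fold changes were -5.35 ± 0.06 and -4.40 ± 0.04. CRH, the corticotropin-releasing hormone, was at 0, 0 and 0 CPM in the SK-N-SH CRISPRi controls, 103, 100.2, 102 and 102 CPM in the SK-N-AS controls and 0.0534, 0, 0, 0 and 0.0272 CPM in the SK-N-SH siRNA controls. SK-N-AS was at least 1622-fold higher than the CRISPRi controls, which had no read.

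The neuropeptide list as a whole was split, with 4 of 10 tested members large and higher in SK-N-SH and 5 in SK-N-AS. Of 11 granins, the acidic proteins of dense-core vesicles, and prohormone processing genes, 4 were large and higher in SK-N-SH and 3 in SK-N-AS (median 0.74; with siRNA 7 and 1, median 1.56). VGF averaged 151, 469 and 1402 CPM in SK-N-SH CRISPRi, SK-N-AS and SK-N-SH siRNA controls, so its log2 fold change was -1.64 ± 0.05 with the CRISPRi and 1.56 ± 0.04 with the siRNA controls. SCG2 was lower than in SK-N-AS with both, at -2.14 ± 0.04 and -0.34 ± 0.04. CADPS, which primes dense-core vesicles, was higher in SK-N-SH in both (8.57 ± 0.22 and 9.27 ± 0.14).

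Genes of neuronal structure and firing were mostly higher in SK-N-SH. Among 20 genes of the neuronal cytoskeleton, 12 were large and higher in SK-N-SH and 2 in SK-N-AS (median 1.38), and 14 and 2 with siRNA (median 2.25). CRMP1, a semaphorin signal mediator of growth cones, was at 164, 171 and 168 CPM in the SK-N-SH CRISPRi controls, 0.816, 0.727, 0.687 and 0.736 CPM in the SK-N-AS controls and 382, 397, 382, 384 and 396 CPM in the SK-N-SH siRNA controls. No SK-N-AS library reached 1 CPM, against at least 164 CPM in every SK-N-SH library. DCX, the microtubule protein doublecortin, was at 45.1, 54.9 and 44.4 CPM in the SK-N-SH CRISPRi controls, 3.29, 3.30, 3.94 and 2.47 CPM in the SK-N-AS controls and 385, 395, 375, 386 and 396 CPM in the SK-N-SH siRNA controls. Both SK-N-SH groups lay above SK-N-AS, and the siRNA controls lay above the CRISPRi controls by 3.01 ± 0.06 on the log2 scale. PRPH, peripherin, the intermediate filament of peripheral neurons, was at 1.62, 1.24 and 1.07 CPM in the SK-N-SH CRISPRi controls, 99.5, 88.2, 90.1 and 97.5 CPM in the SK-N-AS controls and 1.44, 2.30, 1.64, 2.31 and 2.07 CPM in the SK-N-SH siRNA controls. It was the main exception, high in every SK-N-AS library, at -6.22 ± 0.10 and -5.61 ± 0.08.

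The neuronal RNA-binding proteins, which direct neuron-specific splicing, had the highest median of the lists with at least 10 members tested in both comparisons: 10 of 13 were large and higher in SK-N-SH and 1 in SK-N-AS, with a median of 3.23 (11 and 1, median 3.65, with siRNA). ELAVL3 averaged 88.6, 1.03 and 136 CPM and ELAVL4 285, 30.3 and 293 CPM. Among 20 voltage-gated ion channels 14 were large and higher in SK-N-SH and 4 in SK-N-AS (median 1.76), and among 19 neurotransmitter receptors 11 and 5 (median 1.75). SCN9A, a sodium channel of sensory and sympathetic neurons, averaged 24.9, 142 and 49.5 CPM in SK-N-SH CRISPRi, SK-N-AS and SK-N-SH siRNA controls and was lower in SK-N-SH.

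Synaptic vesicle genes gave 13 large and higher in SK-N-SH and 2 in SK-N-AS of 23 (median 1.20), and neuronal adhesion molecules 11 and 1 of 21 (median 1.60). SV2C, a vesicle glycoprotein, averaged 80.6 and 95.3 CPM in the SK-N-SH groups and had no read in SK-N-AS. NCAM1, the adhesion molecule CD56, was higher in SK-N-SH, with log2 fold changes of 2.66 ± 0.04 and 2.62 ± 0.04. SYT4, a vesicle synaptotagmin, was lower in the CRISPRi controls than in SK-N-AS (-2.84 ± 0.06), while the siRNA controls averaged 138 CPM beside 136 CPM in SK-N-AS (0.01 ± 0.04, adjusted p = 0.86, edgeR's quasi-likelihood test).

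Extracellular matrix genes gave some of the largest contrasts, in both directions. FBN2, fibrillin 2 of elastic microfibrils, was at 1738, 1444 and 1449.8 CPM in the SK-N-SH CRISPRi controls, 0, 0.0661, 0 and 0 CPM in the SK-N-AS controls and 80.9, 82.3, 82.3, 90.2 and 95.8 CPM in the SK-N-SH siRNA controls. The 2 reads in SK-N-AS put it 182110.0-fold (95% counting interval 50411 to 1503800.0) higher in the CRISPRi controls. The siRNA controls lay well below the CRISPRi controls, with a log2 fold change of -4.16 ± 0.07 between them. FN1, fibronectin, was at 2818, 2388 and 2518 CPM in the SK-N-SH CRISPRi controls, 119, 107, 121 and 116 CPM in the SK-N-AS controls and 821, 802, 823, 886 and 854 CPM in the SK-N-SH siRNA controls. It kept the same order of groups, at 4.47 ± 0.05 and 2.84 ± 0.04. POSTN, periostin, was at 497, 501 and 508 CPM in the SK-N-SH CRISPRi controls, 0.281, 0.132, 0.178 and 0.0669 CPM in the SK-N-AS controls and 229.5, 201, 227, 234 and 193 CPM in the SK-N-SH siRNA controls. It was under 1 CPM in every SK-N-AS library, and the siRNA controls lay below the CRISPRi controls.

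Of 39 matrix glycoproteins and proteoglycans 19 were large and higher in SK-N-SH and 7 in SK-N-AS (median 0.83; with siRNA 21 and 10, median 1.31). Those higher in SK-N-AS included BGN, the proteoglycan biglycan (6.70, 375 and 4.81 CPM in SK-N-SH CRISPRi, SK-N-AS and SK-N-SH siRNA controls). LUM, lumican, averaged 358, 597 and 19.3 CPM and DCN, decorin, 113, 268 and 2.73 CPM. Both are members of the fibroblast marker list. Unlike its sum, which was highest in the SK-N-SH CRISPRi controls, they were highest in SK-N-AS, and the part of such cells in the matrix results was not tested.

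Collagens were divided by chain. Among 24 tested, 11 were large and higher in SK-N-SH and 7 in SK-N-AS (median 0.65). COL4A5, a basement membrane chain, was at 0.0854, 0 and 0 CPM in the SK-N-SH CRISPRi controls, 95.3, 86.1, 94.0 and 97.4 CPM in the SK-N-AS controls and 0.0267, 0, 0.105, 0.0403 and 0 CPM in the SK-N-SH siRNA controls. It was high in all SK-N-AS libraries and at or near 0 in all others. The other basement membrane chains COL4A1 and COL4A2 were the reverse, at 2.95 ± 0.05 and 2.48 ± 0.05 for COL4A1. The collagen VI chains COL6A1, COL6A2 and COL6A3 were all higher in SK-N-AS, at -2.08 ± 0.04, -2.53 ± 0.04 and -2.12 ± 0.07 with the CRISPRi controls and -1.88 ± 0.03, -2.40 ± 0.04 and -1.34 ± 0.06 with the siRNA controls.

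Matrix proteases and their inhibitors were mostly higher in SK-N-SH, with 15 large in that direction and 4 in the other of 28 (median 1.21; with siRNA 17 and 1, median 1.59). MMP3, the protease stromelysin 1, was at 149, 149 and 157 CPM in the SK-N-SH CRISPRi controls and 226, 185, 199.5, 266 and 179 CPM in the siRNA controls. It had no read in SK-N-AS and was at least 12200.0-fold and at least 16844-fold higher in SK-N-SH. MME, the surface peptidase neprilysin, was at 344, 325 and 350.3 CPM in the SK-N-SH CRISPRi controls, 0.0281, 0, 0.0254 and 0 CPM in the SK-N-AS controls and 290.2, 286, 333, 318 and 266 CPM in the SK-N-SH siRNA controls. It was high in every SK-N-SH library and at or near 0 in SK-N-AS.

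Integrins were even between the lines, with 6 large and higher in SK-N-SH and 6 in SK-N-AS of 18. ITGA8, the alpha chain of a fibronectin and nephronectin receptor, was at 198, 195, 212 and 206 CPM in SK-N-AS and had no read in the SK-N-SH CRISPRi controls, a difference of at least 3249-fold. ITGA11, the alpha chain of a collagen receptor, was at 0.256, 0.413 and 0.512 CPM in the SK-N-SH CRISPRi controls, 272, 232, 261 and 263 CPM in the SK-N-AS controls and 0.534, 0.591, 0.594, 0.672 and 0.585 CPM in the SK-N-SH siRNA controls. It followed ITGA8, with SK-N-AS alone above 1 CPM. ITGA9 and ITGB4 were higher in SK-N-SH, at 2.26 ± 0.07 and 3.48 ± 0.05 for ITGA9.

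For several contractile genes the SK-N-SH control groups also differed from each other. Of 30 actomyosin genes, 17 were large and higher in the SK-N-SH CRISPRi controls and 0 in SK-N-AS (median 1.10); with siRNA the counts were 9 and 3 (median 0.35). TAGLN, the actin-binding protein transgelin, was at 942, 876 and 978 CPM in the SK-N-SH CRISPRi controls, 2.26, 2.45, 2.44 and 1.69 CPM in the SK-N-AS controls and 13.014, 14.1, 12.5, 13.7 and 14.2 CPM in the SK-N-SH siRNA controls. The CRISPRi controls stood far above both other groups, and the log2 fold change between the SK-N-SH groups was -6.11 ± 0.05. CALD1, caldesmon, was higher by 2.62 ± 0.03 with the CRISPRi but 0.38 ± 0.03 with the siRNA controls, and TPM1, a tropomyosin, by 2.54 ± 0.04 and 0.33 ± 0.04. MYH9, the heavy chain of non-muscle myosin, was higher with both (2.41 ± 0.04 and 1.52 ± 0.03), as was the myosin kinase MYLK (3.35 ± 0.04 and 3.72 ± 0.04).

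VIM, vimentin, was at 3015, 2668 and 2986 CPM in the SK-N-SH CRISPRi controls, 1679, 1574, 1634 and 1650.1 CPM in the SK-N-AS controls and 652, 644, 674, 652 and 615 CPM in the SK-N-SH siRNA controls. The SK-N-AS libraries lay between the SK-N-SH groups, with 0.82 ± 0.04 and -1.35 ± 0.03, so its direction depended on the control group. S100A4, a calcium-binding protein tied to motility, was lower in SK-N-SH in both, at -4.96 ± 0.05 and -5.98 ± 0.04. CAV1, caveolin 1, was higher in both, at 4.79 ± 0.05 and 3.71 ± 0.05.

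Targets of YAP and TAZ, the Hippo pathway coactivators that act through TEAD factors, were mostly higher in SK-N-SH: 11 of 21 were large in that direction and 2 in the other (median 1.44), and 9 and 4 with siRNA (median 0.76). CCN2, connective tissue growth factor, was at 721, 607 and 646 CPM in the SK-N-SH CRISPRi controls, 1.21, 0.859, 1.25 and 1.17 CPM in the SK-N-AS controls and 56.0, 54.1, 55.1, 61.2 and 52.6 CPM in the SK-N-SH siRNA controls. Both SK-N-SH groups lay above SK-N-AS without overlap, at 9.14 ± 0.07 and 5.57 ± 0.08, and the siRNA controls lay below the CRISPRi controls (-3.56 ± 0.05 between them). ANKRD1 gave 9.07 ± 0.08 and 5.17 ± 0.13, and LATS2, a Hippo kinase, 6.39 ± 0.11 and 5.72 ± 0.09. NUAK2 and DOCK5 were higher in SK-N-AS.

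The CCN2 promoter window is printed because CCN2 is the textbook target of this pathway; capitals mark matches on either strand to the TEAD motif GGAATG (RefSeq, GRCh38.p14, minus strand, chr6:131951323-131951622, 250 bases before to 50 after the gene's start). It holds 3 matches, from 169 to 95 bases before the start.
CCN2: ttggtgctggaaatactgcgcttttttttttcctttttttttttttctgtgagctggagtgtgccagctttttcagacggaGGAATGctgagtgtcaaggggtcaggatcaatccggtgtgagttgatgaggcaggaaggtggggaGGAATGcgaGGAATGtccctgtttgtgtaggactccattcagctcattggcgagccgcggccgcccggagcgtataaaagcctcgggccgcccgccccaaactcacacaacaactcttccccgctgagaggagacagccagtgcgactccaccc
The motif was in 6 of the 16 windows matched for the YAP and TAZ list (37.5%) and in 10.8% of the 11728 windows of genes tested in both comparisons. Among windows of genes large in both comparisons the share was 11.1% for those higher in SK-N-SH and 11.4% for those higher in SK-N-AS.

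Immediate early genes, which growth factor and MAP kinase signals switch on within minutes, were higher in SK-N-AS. Of 27 AP-1 and immediate early genes 17 were large and higher in SK-N-AS and 1 in SK-N-SH (median -1.52); with siRNA the counts were 19 and 1 (median -1.77). EGR1, a zinc finger factor, was at 65.0, 73.2 and 70.6 CPM in the SK-N-SH CRISPRi controls, 590.5, 688, 614 and 629.8 CPM in the SK-N-AS controls and 38.5, 43.3, 40.5, 37.8 and 40.9 CPM in the SK-N-SH siRNA controls. SK-N-AS stood above both SK-N-SH groups, at -3.18 ± 0.07 and -3.99 ± 0.05. IER3 was at 3.16, 1.58 and 2.24 CPM in the SK-N-SH CRISPRi controls, 487, 448, 478 and 487 CPM in the SK-N-AS controls and 2.77, 2.64, 2.74, 3.64 and 2.38 CPM in the SK-N-SH siRNA controls. It showed the same split, at -7.71 ± 0.08 and -7.41 ± 0.07. FOS, an AP-1 subunit, was at 149, 191 and 181 CPM in the SK-N-SH CRISPRi controls, 289.7, 312, 263 and 301 CPM in the SK-N-AS controls and 4.50, 3.91, 4.47, 3.71 and 4.19 CPM in the SK-N-SH siRNA controls. SK-N-AS was highest, but most of the contrast lay between the SK-N-SH groups (-5.39 ± 0.07), with -0.74 ± 0.10 and -6.15 ± 0.07 against SK-N-AS. FOSB repeated this, at -0.87 ± 0.07 and -8.03 ± 0.10. The feedback regulators SPRY2 and DUSP6 were higher in SK-N-AS in both comparisons, at -2.09 ± 0.04 and -1.79 ± 0.04 for SPRY2.

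Genes of the list of NF-kB and inflammatory mediators were mostly higher in SK-N-AS as well. NF-kB is the inflammatory transcription factor that its own target NFKBIA holds in the cytoplasm. The list also holds NF-kB subunits, and NF-kB activity was not measured. Of 24 tested, 17 were large and higher in SK-N-AS and 2 in SK-N-SH (median -1.98; with siRNA 15 and 3 of 26, median -1.28). NFKBIA was at 29.8, 26.9 and 30.7 CPM in the SK-N-SH CRISPRi controls, 211, 207, 216 and 220.1 CPM in the SK-N-AS controls and 25.9, 24.2, 26.3, 31.4 and 23.4 CPM in the SK-N-SH siRNA controls. The SK-N-SH groups lay together and SK-N-AS above both, at -2.87 ± 0.05 and -3.04 ± 0.06. CCL2, a monocyte chemokine, was at 14.6, 13.1 and 12.8 CPM in the SK-N-SH CRISPRi controls, 422, 429, 405 and 415 CPM in the SK-N-AS controls and 30.8, 30.8, 34.1, 50.1 and 24.7 CPM in the SK-N-SH siRNA controls. SK-N-AS stood above both groups, at -4.97 ± 0.06 and -3.63 ± 0.19, and siRNA replicate 4 was the highest of its group, as it was for ICAM1 and CXCL8. IL1B, interleukin 1 beta, was at 0, 0 and 0 CPM in the SK-N-SH CRISPRi controls, 22.6, 22.997, 22.4 and 23.3 CPM in the SK-N-AS controls and 0.267, 0.823, 0.291, 0.726 and 0.462 CPM in the SK-N-SH siRNA controls. It was at least 362-fold higher in SK-N-AS than in the CRISPRi controls, which had no read. CXCL8, a neutrophil chemokine, was an exception with the siRNA controls (-4.62 ± 0.24 and 1.01 ± 0.35; without SK-N-AS replicate 1, 3 or 4 the latter missed the threshold, at adjusted p = 0.0595, 0.0622 and 0.0574, and with limma-voom at 0.0596), and TNFRSF12A was higher in SK-N-SH (2.06 ± 0.07 and 0.62 ± 0.10).

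Interferon response and nucleic acid sensor genes were higher in SK-N-AS more often than in SK-N-SH: 11 against 4 of 30 were large (median -0.79), and 16 against 3 with siRNA (median -1.02). IFIH1, the RNA sensor MDA5, was at 1.62, 1.51 and 2.47 CPM in the SK-N-SH CRISPRi controls, 23.6, 22.7, 24.6 and 24.3 CPM in the SK-N-AS controls and 2.63, 2.33, 2.42, 1.94 and 2.64 CPM in the SK-N-SH siRNA controls. The SK-N-SH groups overlapped and every SK-N-AS library lay above them, at -3.605 ± 0.12 and -3.33 ± 0.08. TLR3 and BST2 gave -4.003 ± 0.14 and -4.90 ± 0.25 with the CRISPRi controls. STING1, the adaptor of cytosolic DNA sensing, was at 81.0, 67.3 and 81.0 CPM in the SK-N-SH CRISPRi controls, 2.76, 2.38, 2.73 and 2.54 CPM in the SK-N-AS controls and 30.5, 32.8, 28.4, 31.6 and 28.4 CPM in the SK-N-SH siRNA controls. It was the clearest member in the other direction, at 4.86 ± 0.08 and 3.51 ± 0.08. IFNAR2, an interferon receptor chain, averaged 9.61, 16.7 and 0.842 CPM, so its size depended on the control group.

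Genes of MHC class I, which shows peptides to T cells, were also higher in SK-N-AS, 11 of 18 large in that direction and 1 in the other (median -1.12; with siRNA 9 and 2, median -0.88). HLA-B was at 6.83, 5.92 and 6.29 CPM in the SK-N-SH CRISPRi controls, 67.2, 62.2, 62.4 and 63.9 CPM in the SK-N-AS controls and 5.76, 6.04, 6.55, 7.67 and 4.42 CPM in the SK-N-SH siRNA controls. Every SK-N-AS library lay above the rest, at -3.34 ± 0.08 and -3.41 ± 0.10. B2M, the light chain of all class I molecules, was at 235, 245 and 252 CPM in the SK-N-SH CRISPRi controls, 492, 471, 528 and 495 CPM in the SK-N-AS controls and 226, 223, 239, 243 and 195 CPM in the SK-N-SH siRNA controls. Its groups did not overlap either, at -1.03 ± 0.04 and -1.16 ± 0.05. The proteasome subunits PSMB8 and PSMB9 gave -2.36 ± 0.07 and -2.96 ± 0.10 with the CRISPRi controls. The peptide transporter chain TAP1 gave -1.25 ± 0.07 with the CRISPRi but -0.67 with the siRNA controls. HLA-C averaged 93.1, 85.4 and 93.3 CPM in SK-N-SH CRISPRi, SK-N-AS and SK-N-SH siRNA controls. Reads of HLA-B and HLA-C can be split between near-identical copies, and alleles differ between cell lines, so these levels are uncertain.

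The promoter windows of 3 of these genes are printed because their motifs are those the lists are named for. Capitals mark matches on either strand to the NF-kB motif in NFKBIA and to the interferon element (GAAA, any 2 bases, GAAA) in IFIH1 and B2M (RefSeq, GRCh38.p14, the same 300 bases around the start). The windows are chr14:35404700-35404999 on the minus strand, chr2:162318635-162318934 on the minus strand and chr15:44711267-44711566 on the plus strand.
NFKBIA: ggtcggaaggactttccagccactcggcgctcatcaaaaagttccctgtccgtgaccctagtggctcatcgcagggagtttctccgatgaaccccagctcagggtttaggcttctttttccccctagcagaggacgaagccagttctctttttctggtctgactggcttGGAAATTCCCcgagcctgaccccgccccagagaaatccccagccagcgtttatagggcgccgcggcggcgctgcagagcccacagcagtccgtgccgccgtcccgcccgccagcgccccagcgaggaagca
IFIH1: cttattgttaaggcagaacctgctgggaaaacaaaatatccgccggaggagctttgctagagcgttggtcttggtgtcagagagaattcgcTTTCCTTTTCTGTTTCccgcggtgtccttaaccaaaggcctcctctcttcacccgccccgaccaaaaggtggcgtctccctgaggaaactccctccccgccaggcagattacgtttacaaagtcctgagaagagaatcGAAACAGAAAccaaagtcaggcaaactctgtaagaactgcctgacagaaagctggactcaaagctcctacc
B2M: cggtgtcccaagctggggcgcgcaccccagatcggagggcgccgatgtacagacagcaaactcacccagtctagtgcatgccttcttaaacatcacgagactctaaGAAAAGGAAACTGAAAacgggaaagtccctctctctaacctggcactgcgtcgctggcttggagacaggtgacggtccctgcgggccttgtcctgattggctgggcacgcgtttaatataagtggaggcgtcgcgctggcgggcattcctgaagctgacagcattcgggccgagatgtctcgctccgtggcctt
NFKBIA holds 1 match at 81 bases before the start, IFIH1 3 matches between 159 and 21 bases before it, and B2M 2 overlapping matches at 144 and 138 bases before it. The interferon element was in 15 of 23 windows of the interferon list (65.2%) and 7 of 14 of the MHC class I list, and the NF-kB motif in 11 of 21 windows of the NF-kB list (52.4%). Both lists hold genes known for these elements. Among windows of genes large in both comparisons, the interferon element was in 5.73% of the 1013 for genes higher in SK-N-AS and 2.25% of the 1735 for genes higher in SK-N-SH, beside 2.75% of the 11728 tested and 3.65% of all 27305. The NF-kB motif was in 10.2%, 6.86%, 6.67% and 5.72% of the same windows, and the AP-1 motif TGANTCA in 7.01%, 5.36%, 4.74% and 7.76%. The windows of genes higher in SK-N-AS also held fewer CpG dinucleotides (median 20 against 25 and 26 tested). A match is a description of letters and not a site of binding.

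Genes known from the DNA damage response and cell cycle arrest were mostly higher in SK-N-SH. DNA damage itself was not measured. For comparison, 7137 of all 17392 genes tested with the CRISPRi controls were called higher in SK-N-SH and 6847 in SK-N-AS. Of the 28 genes of that list, 23 were called higher in SK-N-SH and 2 in SK-N-AS, with 20 and 0 large (median 1.21); with siRNA the large counts were 19 and 1 (median 1.40), and 18 were large and higher in SK-N-SH in both. CDKN1A, the cell cycle inhibitor p21, was at 410.1, 381 and 425 CPM in the SK-N-SH CRISPRi controls, 18.7, 17.3, 16.972 and 17.1 CPM in the SK-N-AS controls and 519.6, 528, 538, 556 and 492 CPM in the SK-N-SH siRNA controls. Every SK-N-SH library lay above SK-N-AS, at 4.53 ± 0.05 and 4.90 ± 0.05. PHLDA3, an inhibitor of AKT, was at 114, 102 and 109 CPM in the SK-N-SH CRISPRi controls, 0.520, 0.793, 0.788 and 0.535 CPM in the SK-N-AS controls and 87.5, 84.0, 88.6, 92.0 and 76.8 CPM in the SK-N-SH siRNA controls. It repeated that order at 7.39 ± 0.09 and 7.04 ± 0.09. EDA2R, a death domain receptor, was at 31.6, 32.4 and 32.0 CPM in the SK-N-SH CRISPRi controls, 0, 0, 0 and 0 CPM in the SK-N-AS controls and 42.0, 46.6, 47.3, 46.9 and 48.0 CPM in the SK-N-SH siRNA controls. It had no read in SK-N-AS and was at least 2560.2-fold and at least 3692-fold higher in SK-N-SH. MDM2, a ubiquitin ligase, was higher by 1.04 ± 0.05 and 1.26 ± 0.05, SESN1, a stress-induced inhibitor of mTOR signalling, by 3.03 ± 0.09 and 3.39 ± 0.06, while BTG2 was lower, at -0.35 ± 0.06 and -0.16 ± 0.05. The call for BTG2 with siRNA was lost without siRNA replicate 1 (-0.105, adjusted p = 0.0748, edgeR's quasi-likelihood test) or 2 (-0.086, adjusted p = 0.137), and with total counts in place of TMM (-0.095, adjusted p = 0.0664).

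Proliferation genes moved little with the CRISPRi controls. Of 31 mitosis genes 2 were large and higher in SK-N-SH with the CRISPRi controls and 0 in SK-N-AS (median 0.11), and with siRNA 0 and 6 (median -0.70), so the sign of the median depended on the control group. DNA replication genes gave medians of 0.23 and -0.17. MKI67, the proliferation antigen Ki-67, averaged 291, 351 and 479 CPM in SK-N-SH CRISPRi, SK-N-AS and SK-N-SH siRNA controls. In both comparisons its direction was opposite to that of the list medians.

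Sterol and fatty acid synthesis genes, which SREBP factors raise when sterol is short, were all lower in SK-N-SH with the CRISPRi controls: 24 of 24 were called in that direction and 18 were large (median -1.59). With the siRNA controls 12 were large and higher in SK-N-AS and 0 in SK-N-SH (median -1.07). Among all 17392 genes tested with the CRISPRi controls, 6847 were called higher in SK-N-AS and 13.9% were large in that direction. SQLE, the squalene oxidase, was at 52.9, 58.7 and 57.0 CPM in the SK-N-SH CRISPRi controls, 271, 254, 278 and 277 CPM in the SK-N-AS controls and 67.5, 65.7, 70.8, 66.3 and 63.2 CPM in the SK-N-SH siRNA controls. SK-N-AS was above every SK-N-SH library, at -2.26 ± 0.04 and -2.03 ± 0.04. SQLE lies at 120 to 140 Mb of chromosome 8, where the median over 49 genes was -0.87 and -1.01. MVK, mevalonate kinase, gave -2.70 ± 0.06 and -1.76 ± 0.05. FDPS averaged 147, 302 and 32.5 CPM, and its size depended on the control group (-1.04 ± 0.04 and -3.23 ± 0.03).

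**Figure D3:**
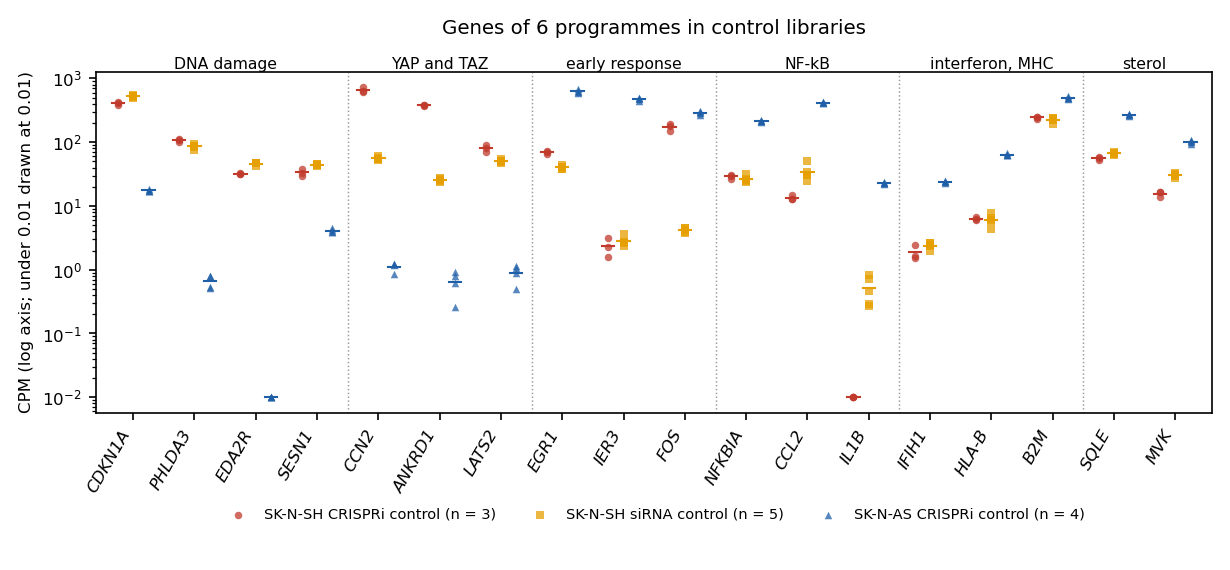
Levels of 18 genes of 6 programmes in each control library, in CPM on a log axis (points: libraries, bars: group means, values under 0.01 drawn at 0.01). The DNA damage response, YAP and TAZ genes drawn lie higher in both SK-N-SH groups. The early response, NF-kB, interferon, MHC class I and sterol genes drawn lie highest in SK-N-AS. FOS and CCN2 also differ between the SK-N-SH groups. The genes were picked, and members that went the other way, such as STING1, TNFRSF12A, BTG2, NUAK2 and DOCK5, are not drawn.

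Receptor kinases were evenly divided, with 13 large and higher in SK-N-SH and 12 in SK-N-AS of 38 (median 0.00). ALK, a receptor kinase and oncogene of neuroblastoma, was at 94.7, 99.5 and 92.9 CPM in the SK-N-SH CRISPRi controls, 0.113, 0, 0.0509 and 0.0334 CPM in the SK-N-AS controls and 91.4, 102, 90.9, 83.0 and 103 CPM in the SK-N-SH siRNA controls. The SK-N-SH groups overlapped, their difference missed the threshold (-0.02 ± 0.06 between them, adjusted p = 0.74, edgeR's quasi-likelihood test) and SK-N-AS was near 0. MET and AXL, receptors tied to invasive growth, were higher in SK-N-SH, at 5.39 ± 0.05 and 3.61 ± 0.05 for MET and 4.45 ± 0.05 and 3.37 ± 0.06 for AXL. EPHA7, an ephrin receptor, was at 121, 124, 129 and 127 CPM in SK-N-AS and had no read in the CRISPRi controls (at least 1996-fold higher). RET, the GDNF receptor, and EGFR were lower in SK-N-SH, at -1.47 ± 0.04 and -1.22 ± 0.04 for RET and -1.51 ± 0.04 and -0.98 ± 0.03 for EGFR. IGF1R was lower too (-2.05 ± 0.05 and -1.33 ± 0.03).

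NOTCH1 and NOTCH2, receptors of cell contact signals, were close to 0 in SK-N-AS. NOTCH2 was at 223, 192 and 196 CPM in the SK-N-SH CRISPRi controls, 0.647, 0.132, 0.331 and 0.635 CPM in the SK-N-AS controls and 281, 269.5, 263, 293 and 283 CPM in the SK-N-SH siRNA controls. No SK-N-AS library reached 1 CPM. NOTCH1 averaged 27.8, 0.0833 and 52.6 CPM and the Notch target NRARP 9.53, 0.106 and 7.48 CPM, whereas NOTCH3 (-1.32 ± 0.05 and -0.50 ± 0.04) and the targets HES1 and HEY1 were higher in SK-N-AS (-2.56 ± 0.25 and -4.56 ± 0.11 for HES1). Over the list, 6 of 17 were large and higher in SK-N-SH and 4 in SK-N-AS. In the Wnt list the counts were 10 and 4 of 30; the feedback targets AXIN2 and NKD1 were higher in SK-N-SH (4.47 ± 0.21 and 4.56 ± 0.21 with the CRISPRi controls), and LGR5 and TCF7L2 higher in SK-N-AS (-2.99 ± 0.04 and -3.06 ± 0.06). TGF-beta and BMP genes gave 8 and 8 of 31, with TGFB2 at 83.8, 0.194 and 14.8 CPM, INHBA at 391.66, 1.31 and 63.8 CPM and TGFBR3 at 0.0285, 14.6 and 0.0470 CPM in SK-N-SH CRISPRi, SK-N-AS and SK-N-SH siRNA controls.

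Imprinted growth genes went to opposite lines. IGF2, the fetal growth factor, was at 2.73, 2.2029 and 2.84 CPM in the SK-N-SH CRISPRi controls, 683, 673, 673 and 669.8 CPM in the SK-N-AS controls and 0.561, 0.848, 1.32, 0.860 and 1.22 CPM in the SK-N-SH siRNA controls. All SK-N-AS libraries were high and no SK-N-SH library reached 3 CPM. DLK1, a Delta-like membrane protein, was at 285, 290.0 and 283 CPM in the SK-N-SH CRISPRi controls, 0.577, 0.727, 0.509 and 0.903 CPM in the SK-N-AS controls and 157, 181, 191, 139 and 162 CPM in the SK-N-SH siRNA controls. It was high in both SK-N-SH groups and under 1 CPM in SK-N-AS. MEG3, the non-coding RNA of the same imprinted cluster as DLK1, was at 0.0854, 0 and 0.0466 CPM in the SK-N-SH CRISPRi controls, 312, 304, 302 and 299.8 CPM in the SK-N-AS controls and 0.0802, 0, 0, 0 and 0 CPM in the SK-N-SH siRNA controls. Its order was thus the reverse of DLK1, with SK-N-AS 7269.7-fold (95% counting interval 2012 to 60029) above the CRISPRi controls. Of 16 members 7 were large and higher in SK-N-SH and 6 in SK-N-AS. MYCN was low in all libraries, at 2.13, 0.0134 and 4.88 CPM, and MYC averaged 62.9, 107 and 87.3 CPM.

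**Figure D4:**
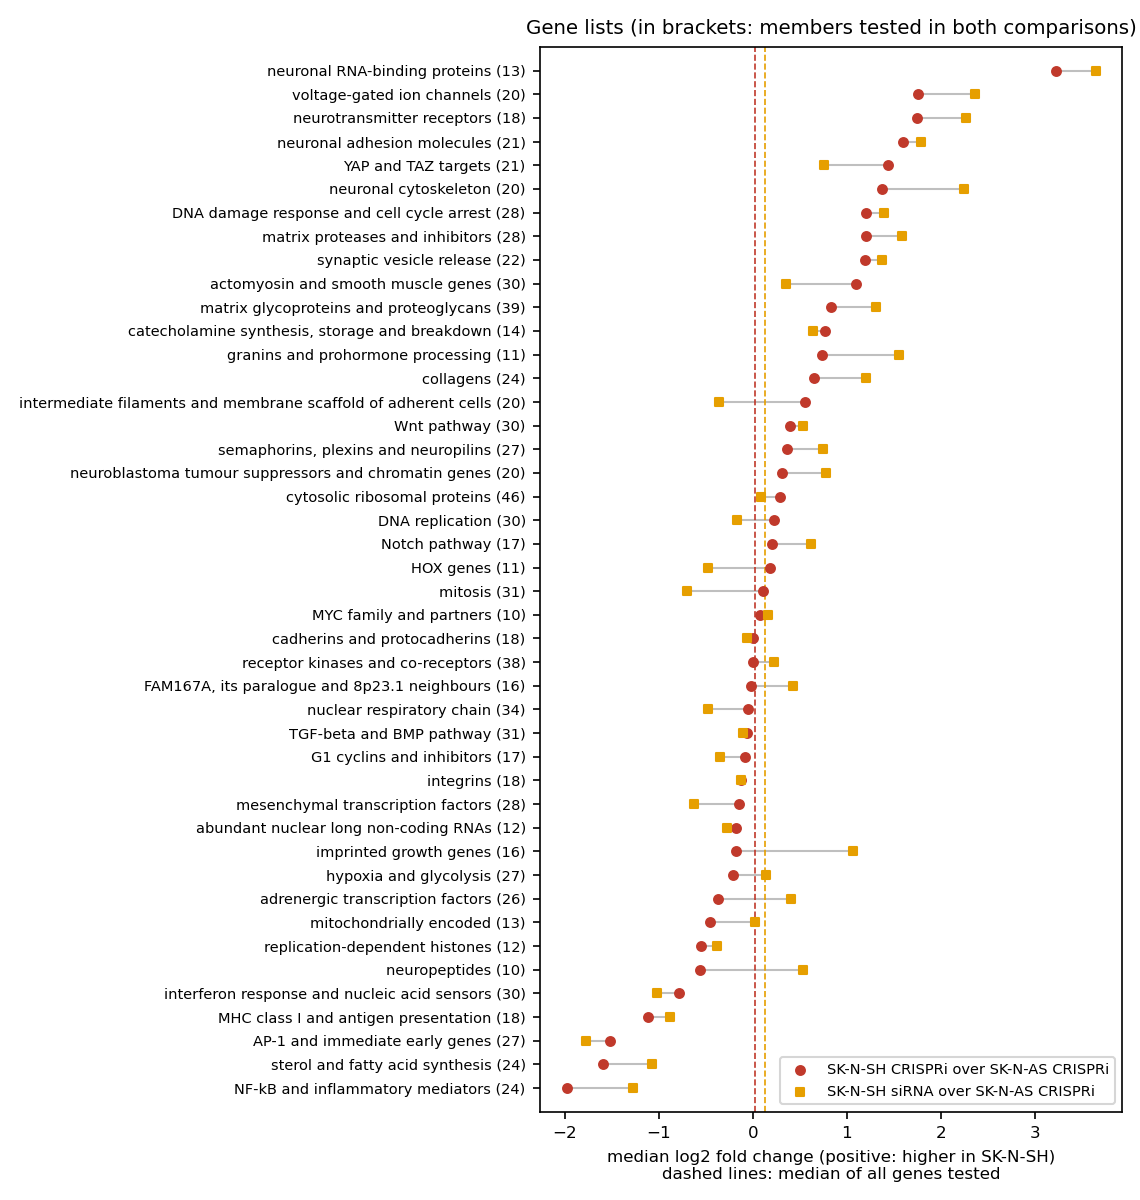
Median log2 fold change of each gene list with at least 10 members tested in both comparisons, SK-N-SH over SK-N-AS, with the CRISPRi (circles) and siRNA (squares) controls of SK-N-SH; the number tested in both comparisons is in brackets and the dashed lines are the medians over all genes tested, 0.02 and 0.13. The neuronal RNA-binding protein, ion channel and neurotransmitter receptor lists lie highest of those drawn in both, the DNA damage response, matrix protease, YAP and TAZ lists are above 0 in both, and the NF-kB, sterol and early response lists are lowest of those drawn in both.

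Some genes were read in 1 line only, taken as at least 5 CPM in every control library of a line and under 0.1 CPM in every library of the other. There were 221 for SK-N-SH and 48 for SK-N-AS. Of the 221, 113 are pseudoautosomal or overlapped by a gene ID that is not in all 3 tables, so their counts depend on the annotation; 108 were left without such a mark, and 46 of the 48. SLC25A6 shows the difference: this pseudoautosomal mitochondrial carrier averaged 768 and 1099 CPM in SK-N-SH and had no read in SK-N-AS, as did VAMP7 (81.5 and 55.7 CPM).

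Among unmarked genes of SK-N-SH at high level were FBN2, MME, MMP3 and SV2C above, GAS6 (274, 0.0134 and 120.1 CPM), a ligand of AXL, FBLN5 (195, 0.0165 and 90.3 CPM), an elastic fibre protein, and NNAT (159.5, 0.00703 and 118 CPM), an imprinted neuronal gene, each in SK-N-SH CRISPRi, SK-N-AS and SK-N-SH siRNA controls. OPRM1, the mu opioid receptor, averaged 54.8, 0 and 42.2 CPM. Those of SK-N-AS included GCG, MEG3, ITGA8, CRH and EPHA7 above, BRINP3 (0.0155, 209 and 0.0306 CPM), LTBR, the lymphotoxin beta receptor (0.0155, 104 and 0.0240 CPM), and TDO2, which breaks down tryptophan (0.0155, 99.5 and 0.0285 CPM). MAGEA12 and MAGEA3 were read in SK-N-SH and MAGEA11 in SK-N-AS; these testis antigens are near-identical copies, so their single levels are uncertain.

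Differences also ran along chromosomes. Over 155 segments of 20 Mb with at least 20 unmarked genes, 21 had medians of the log2 fold change past 0.5 or -0.5, on the same side in both comparisons. The first 60 Mb of chromosome 3 were higher in SK-N-SH, with medians of 1.02, 0.90 and 0.86 in its 3 segments (90, 69 and 212 genes) and 0.98, 1.01 and 0.87 with siRNA. Chromosome 11 from 80 to 140 Mb gave 0.87, 0.90 and 0.93 (0.62, 0.72 and 0.82 with siRNA), chromosome 16 from 80 Mb 0.94 and 0.96, chromosome 6 from 100 to 140 Mb 0.60 and 0.87 (0.64 and 0.68 with siRNA) and from 160 Mb 0.80 and 0.83. Single segments that were higher in both comparisons were on chromosome 7 at 60 to 80 Mb (0.65 and 0.60), chromosome 22 from 40 Mb (0.59 and 0.60), chromosome 9 to 20 Mb (0.87 and 0.94) and chromosome 17 to 20 Mb (0.90 and 0.80).

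Segments lower in SK-N-SH were on chromosome 8 from 120 Mb (-0.87 and -0.69; -1.01 and -0.72 with siRNA), chromosome 4 at 100 to 120 Mb and from 140 Mb (-0.61 to -0.84; -0.62 to -0.98 with siRNA) and chromosome 12 from 120 Mb (-0.67 and -0.69). Between the SK-N-SH control groups the medians of these 21 segments were -0.36 to 0.08. The segments were chosen for lying on the same side with both of those groups, which favours such closeness. Other segments differed more between the SK-N-SH groups. On chromosome 1 from 140 Mb their medians were -0.51 to -0.23, and on chromosome 4 at 120 to 140 Mb the median was -0.51. In the segment of FAM167A, the first 20 Mb of chromosome 8, the medians were -0.21 and -0.25 over 74 genes. DNA copy number was not measured in these libraries, and its part was not tested.

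**Figure D5:**
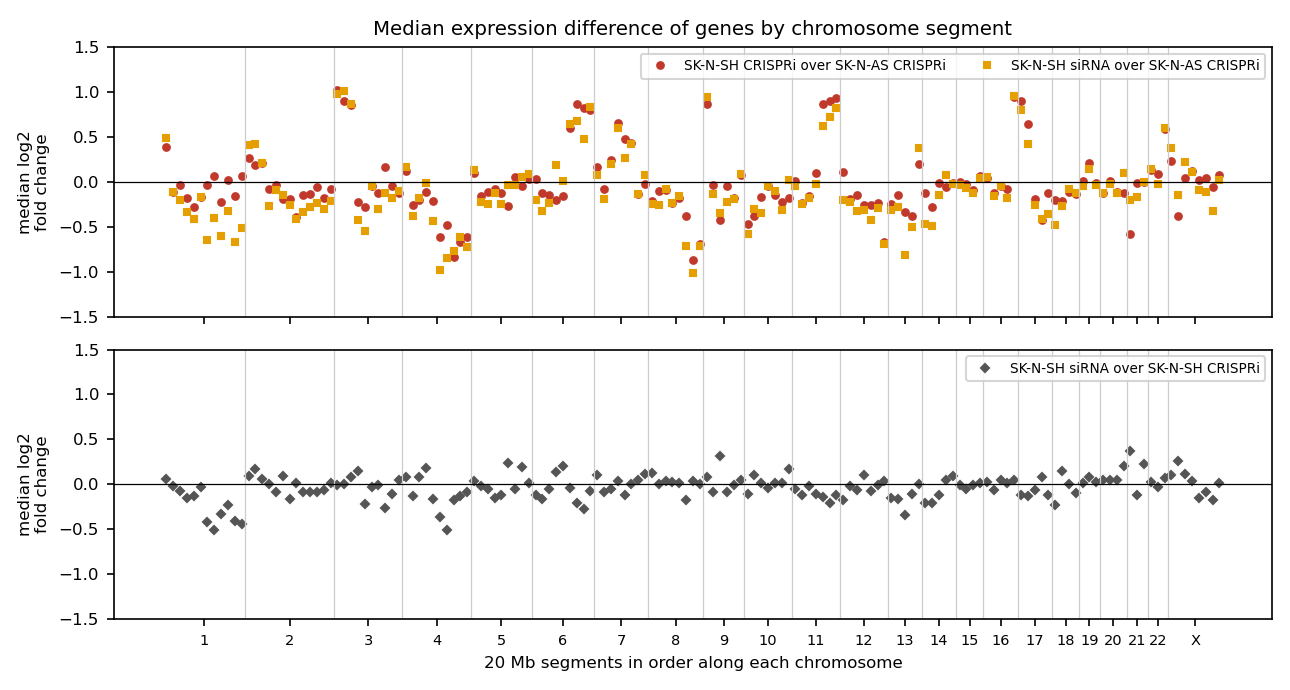
Median log2 fold change of genes in 155 segments of 20 Mb in chromosome order, above for SK-N-SH over SK-N-AS with the CRISPRi (circles) and siRNA (squares) controls, below for SK-N-SH siRNA over CRISPRi controls. Runs of neighbouring segments on chromosomes 3 and 11 lie above 0.5 and on chromosomes 4 and 8 below -0.5 in the upper panel. In the lower panel the 21 segments given in the text lie between -0.36 and 0.08, and those of chromosome 1 from 140 Mb between -0.51 and -0.23.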

How the data were processed

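The authors deposited raw read counts per gene in 1 table for each experiment. Per the submitters' processing notes, bcl2fastq (2.20 and 2.20.0.422), CASAVA, FastQC 0.11.8, STAR 2.6.1d, featureCounts 1.5.1 and GRCh38 were used; the sources used here do not say which served which experiment, nor the annotation release or strand setting, so reads of a gene and an overlapping antisense gene may not be separable. The CRISPRi libraries were made with a stranded mRNA kit, per the labels' protocols. The 12 knockdown columns were not used.

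The tables were joined on Ensembl gene ID: 57356 IDs were in all 3, and 35950 (62.7%) had the same start and end in each. Marked genes (1993, 3.5%) are pseudoautosomal, or overlapped on their strand by a gene ID that is not in all tables and had at least 10 reads. Genes passed filterByExpr (minimum count 10, minimum total 15), were scaled by TMM and tested with edgeR 4.0.16 (glmQLFit, robust, and glmQLFTest, R 4.3.3) between 2 groups at a time, with Benjamini-Hochberg adjustment. The code was tested on simulated data. DESeq2 1.42.0 and limma 3.58.1 were alternatives. Levels in the text are CPM computed from the deposited counts, with TMM factors over the 12 control libraries; they are not per length, so they compare libraries and not genes. Depth limits the SK-N-SH CRISPRi libraries most. Counting intervals (95%, exact) and the floor of 3 reads cover counting error only. Promoter windows came from the RefSeq table of GRCh38.p14 and were matched by gene.

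The members, the 54 gene lists (1128 genes, 1126 found) and the tests were chosen with earlier results of these data known. Named genes were FAM167A, FAM167B and the MRCK genes; the 12 largest in each direction at 10 CPM or more among genes large in both comparisons without overlap; up to 5 large members and 3 discordant members of each list; the core transcription factors; the 10 most abundant genes read in 1 line only; up to 8 of the genes large in opposite directions; and the 5 most abundant genes of a group. Outside that rule, these were chosen after their values were seen: B2M, BGN, BLK, BTG2, CALD1, CD14, CD3E, COL4A1, COL6A1, COL6A2, COL6A3, DDC, DOCK5, DUSP6, EGFR, ELAVL4, FDPS, FOS, FOSB, HBB, HLA-C, ICAM1, IFNAR2, IGF1R, LGR5, LUM, MDM2, MET, MKI67, MYC, MYCN, MYH9, NCAM1, NFKBIA, NOTCH3, NUAK2, RET, RPL14, RPL32, RPL8, RPLP0, RPS12, RPS25, RPS6, RPSA, SCG2, SCN9A, SESN1, SLC18A2, SPRY2, SYT4, TAP1, TH, TNFRSF12A, TPM1. A few genes that these rules name are not reported here.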

Additional observations from a re-analysis of the deposited data

Results flagged for a closer look

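In 4 of 104 groups of libraries tested, a single library lay far from the others of its group. The test covered the SK-N-AS and SK-N-SH siRNA controls, with the 49 genes given per library, total reads, mitochondrial share and genes detected. For normally spread values about 1 in 20 groups would be marked by chance. A gene at 0 in all libraries but 1 is always marked, so that rate does not hold for FBN2, ITGA8 and MEG3. FBN2 was at 0.0661 CPM in SK-N-AS replicate 2 and at 0 in the other 3. ITGA8 was at 0.0269 CPM and MEG3 at 0.0802 CPM in 1 SK-N-SH siRNA library each, with 0 in the other 4. EDA2R was lowest in siRNA replicate 1, at 42.0 CPM against 46.6 to 48.0 CPM in the others.

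The SK-N-SH control groups differed from each other so far that 99 and 76 genes were large in opposite directions against SK-N-AS. The 8 given here are those whose smaller fold change against SK-N-AS was largest in size. They were not ranked by the log2 fold change of siRNA over CRISPRi controls, which is in brackets (edgeR's quasi-likelihood test). 6 of the 8 were lower with siRNA. PCDH10, a protocadherin of neuronal adhesion, averaged 845, 16.9 and 1.34 CPM in SK-N-SH CRISPRi, SK-N-AS and SK-N-SH siRNA controls (-9.30), and PCDH10-DT, the divergent transcript beside it, 18.6, 1.62 and 0.00514 CPM (-11.28). ARHGAP36, a regulator of hedgehog signalling, averaged 164, 9.45 and 0.344 CPM (-8.90), SLITRK1, a synaptic adhesion protein, 3.21, 0.352 and 0.0213 CPM (-7.13), GABARAP, an autophagy protein, 27.2, 4.86 and 0.402 CPM (-6.05) and SUPT4H1, a transcription elongation factor, 13.1, 2.39 and 0.00541 CPM (-10.79). In the other direction, ENTPD1, the ectonucleotidase CD39, averaged 0.0899, 0.737 and 10.9 CPM (6.99) and RN7SL3, a 7SL RNA gene, 0.0514, 0.572 and 4.03 CPM (6.51). RN7SL3 has near-identical copies, so its level is uncertain. None of the 8 is overlapped on its strand by a gene ID that is not in all 3 tables; SUPT4H1 and RN7SL3 have the same span in each table and the other 6 do not. Overlap by gene IDs that all tables share, and the part of the annotation in these values, were not tested.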

How the results depend on the processing

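Of 326 fold changes of genes in the text, 0 reversed under 6884 refits; 82 refits of 55 of them no longer passed the threshold, most under glmTreat, which tests against a fold of 2, and 1 passed it anew. With glmTreat 5217, 8653 and 4351 genes were called (SK-N-SH CRISPRi over SK-N-AS, siRNA over SK-N-AS, siRNA over CRISPRi), and the share of calls that were higher was 62.7%, 67.2% and 63.6% against 51.0%, 54.7% and 54.3%.

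Counts of large genes moved by over 1.5 times as follows, in the order given. At 1 CPM in 3 libraries, siRNA over SK-N-AS gave 4061 higher, and siRNA over CRISPRi 1932 higher and 1398 lower. Without a filter the first was 9811. Protein-coding genes gave 1601 higher in SK-N-AS than in the CRISPRi controls, 3533 higher and 1944 lower for siRNA over SK-N-AS, 1720 and 1228 for siRNA over CRISPRi, 1108 higher in SK-N-AS in both, and 143 genes read in 1 line only, 102 of SK-N-SH. Libraries thinned to 11673405 reads gave 4039 and 2170 for siRNA over SK-N-AS, and 2082 and 1489 for siRNA over CRISPRi. Genes of the same span in all 3 tables, an alternative chosen after seeing the data that tests fewer genes, gave 4719 called with 1285 higher and 836 lower, 6940 with 2915 and 1285, and 5901 with 2143 and 1000; 1471 were large in both (896 higher in SK-N-SH, 575 in SK-N-AS) and 62 read in 1 line only (45 and 17). Without marked genes, also chosen after seeing the data, 154 were read in 1 line only, 108 of SK-N-SH.

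Leaving out each library in turn gave 13382 to 14287, 17273 to 18305 and 13163 to 14725 genes called, 4470 to 4964 large in both and 271 to 283 read in 1 line only. A replicate block on the label numbers gave 13852, 17652 and 14574 called and 4683 large in both. Libraries of the same number did not deviate together (r -0.017 to 0.184, -0.055 to 0.154 and -0.079 to 0.017; 1, 0 and 1 libraries correlated best with their own number), so the numbers do not pair the libraries.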

Other observations

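Ribosomal protein genes, which are co-expressed in most cells, were not equal between the lines. Of 46 tested, the 8 in chromosome segments whose median was higher in SK-N-SH (RPL13, RPL14, RPL15, RPL32, RPS12, RPS25, RPS6 and RPSA) had a median log2 fold change of 1.01 with the CRISPRi and 0.76 with the siRNA controls, and 4 were large. The 3 in segments higher in SK-N-AS (RPL8, RPLP0 and RPS3A) had medians of -0.56 and -0.20, and 1 was large and higher in SK-N-AS. The other 35 had medians of 0.25 and 0.06, and 1, RPS3, was large. These counts of large genes are with the CRISPRi controls. With siRNA, 4 of the 46 were large and higher in SK-N-SH and 3 in SK-N-AS. RPL15 averaged 895, 437 and 1016 CPM in SK-N-SH CRISPRi, SK-N-AS and SK-N-SH siRNA controls. This split was chosen after the values were seen, and each segment median includes the ribosomal genes in it.

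Of 27 hypoxia and glycolysis genes, 4 were large in each direction with the CRISPRi controls. With siRNA, 5 were large and higher in SK-N-SH and 4 in SK-N-AS. The shares over all genes tested were 22.0% and 13.9%, and with siRNA 31.2% and 16.0%. EPAS1, the hypoxia factor HIF-2 alpha that also serves noradrenergic cells, averaged 330.2, 14.999 and 179.9 CPM in the same order of groups (log2 fold changes 4.44 ± 0.05 and 3.56 ± 0.05), while EGLN3, a prolyl hydroxylase that marks such factors for destruction, averaged 0.959, 25.4 and 4.87 CPM and was higher in SK-N-AS. Of 27 semaphorins, plexins and neuropilins, which guide axons, 10 were large and higher in SK-N-SH and 8 in SK-N-AS (11 and 7 with siRNA); SEMA3C was at 3.43 ± 0.05 and 3.02 ± 0.05. Among 8 tested genes of IGF binding and IGF2 mRNA-binding proteins, 5 were large and higher in SK-N-SH and 1, IGFBP7, in SK-N-AS (median 1.49), but with siRNA 2 and 1 (median 0.22); IGFBP7 was at -5.59 ± 0.24 and -4.54 ± 0.13. CHD5, a chromatin remodeller of neurons lost from some neuroblastomas, averaged 24.6, 0.0682 and 20.1 CPM. RGS5, a regulator of G protein signalling known from pericytes, was among the most abundant genes of SK-N-AS, at 1008.1, 6613 and 1924 CPM.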
